A study of Rattus norvegicus with 38 samples.

Results

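The heat shock and unfolded protein response genes are the chaperones, protein quality control enzymes and stress sensors with which a cell keeps its proteins folded. They were described here in rat lung after cigarette smoke. Of 38 listed genes, 34 were measured, among 14217 genes with a probe set of their own on the array. Members were chosen by gene symbol: a probe set had to carry 1 listed symbol and no other, and the brightest by its mean over the 38 arrays stood for a gene with several. The members Hspa8, Hspa1b, Ern1 and Hsp90aa1 had no such probe set and were not analysed here, and all 34 others lay above the limit set for low signal.

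The study measured lung RNA of 38 female N:NIH rats, 34 weeks old, each on 1 Affymetrix Rat Genome 230 2.0 array. The animals belonged to lines bred over generations for running capacity, either high (HCR) or low (LCR). They breathed cigarette smoke or, as sham controls, room air on 5 days per week for 12 weeks. Each line gave 7 sham and 12 smoke animals. No group carried a transgene or a deletion by the labels, and for 1 LCR sham animal (0445) the characteristics name the tissue alone, its group coming from its title. The comparisons are smoke against sham within a line, LCR against HCR within an exposure, and the smoke change of LCR against that of HCR.

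Proteins made in the endoplasmic reticulum (ER) fold there with the help of chaperones such as BiP, encoded by Hspa5. When unfolded protein builds up, the sensors PERK, ATF6 and IRE1 start the unfolded protein response. PERK slows translation and favours ATF4, IRE1 splices the Xbp1 messenger, and ATF6 is cut to release a transcription factor. Their targets are ER chaperones, enzymes of ER-associated degradation and, through ATF4, genes of amino acid supply. The heat shock response is the counterpart in the cytosol, where HSF1 induces chaperones of the Hsp70, Hsp40, Hsp90 and small heat shock families. In the lung, type 2 cells, club cells, mucous cells and plasma cells secrete much protein and rely on ER folding, while oxidants in smoke can damage proteins in any cell.

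The members' promoters are shown first, searched for DNA elements tied to these pathways. Only part of the windows held a match. Those of Hspa1a, Asns, Edem1, Dnajb9, Sdf2l1 and Pdia4, among others, held none of the elements searched. RefSeq's table for GRCr8 gave a window of 250 bases before to 50 bases after the start site for 29 of the 34 members. There was no entry for Manf, Pdia3, Pdia6, Atf6 and Hsf1. Only 1 window per gene was searched, so an element near another start site would be missed. Those of Dnajb9, Asns and Edem1, among others, lay inside the annotated gene. For Dnajb9 the window was chr6:67002002-67002301 in a gene at 66997842 to 67007371. An empty window therefore does not show that a gene lacks the element. The classical ER stress element was searched on both strands as CCAAT and CCACG with 9 bases of any kind between them. It was found in 7 of the 29 windows (24.1%), against 0.0765% of all 27457 windows. The 8 matches in these 7 genes follow, each read 5′ to 3′ in the orientation of the element, with its CCAAT and CCACG ends in capitals.
Hspa5, chr3:38452973-38452991, 43 to 25 bases before the start: CCAATcggaggcctCCACG
Hsp90b1, chr7:23012451-23012469, 176 to 158 bases before: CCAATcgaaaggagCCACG
Hsp90b1, chr7:23012347-23012365, 72 to 54 bases before, opposite strand: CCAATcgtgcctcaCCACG
Creld2, chr7:121789239-121789257, 145 to 127 bases before, opposite strand: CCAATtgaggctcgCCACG
Canx, chr10:35158069-35158087, 230 to 212 bases before: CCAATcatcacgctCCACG
Xbp1, chr14:84604558-84604576, 65 to 47 bases before: CCAATcgcagacggCCACG
Dnajc3, chr15:102432534-102432552, 133 to 115 bases before: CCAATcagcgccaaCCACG
Calr, chr19:40213135-40213153, 232 to 214 bases before, opposite strand: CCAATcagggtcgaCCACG
The related ER stress element II, ATTGG and CCACG with 1 base of any kind between them, was found for Herpud1 (1 match) and Hyou1 (2 matches), in 6.9% of the members' windows against 0.0546% of all. In context, the Hspa5 element stands close to the start site, as this stretch of the plus strand at chr3:38452896-38453015 shows, with the element in capitals.
Hspa5 upstream: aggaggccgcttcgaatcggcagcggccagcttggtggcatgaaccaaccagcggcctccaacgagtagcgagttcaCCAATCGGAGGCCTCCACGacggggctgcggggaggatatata

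The heat shock element is made of inverted repeats of GAA. In 3 units (GAA, TTC and GAA, or TTC, GAA and TTC, each 2 bases apart, on both strands) it was found for Dnaja1, Hspd1, Hspe1 and Hsph1, which is 13.8% of the members' windows against 0.736% of all. The shorter form of 2 units, GAANNTTC, is contained in the longer one and was found for 7 members, those 4 and Bag3, Dnajb1 and Hspb1 (24.1% against 8.34%). Hspe1 and Hspd1 lie head to head with start sites 290 bases apart, and the same element lies in both windows. The amino acid response element TGATGNAA was found for Herpud1 and Trib3 (6.9% against 3.82%). Pieces of the Hsph1 promoter (chr12:10427268-10427367, plus strand) and of the shared Hspe1 and Hspd1 promoter (chr9:64084207-64084326, plus strand) follow, with the heat shock element in capitals. A match of letters is a description of these windows and not a measured binding site.
Hsph1 upstream: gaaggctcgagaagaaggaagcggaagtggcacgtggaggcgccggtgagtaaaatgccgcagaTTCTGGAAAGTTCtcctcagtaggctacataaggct
Hspe1 upstream: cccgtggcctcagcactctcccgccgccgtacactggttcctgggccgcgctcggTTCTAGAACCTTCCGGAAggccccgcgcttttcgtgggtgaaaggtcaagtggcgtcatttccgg

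Values below are the deposited linear intensities of a gene's probe set. Differences are of log2(intensity + 16), given ± SE with a p adjusted over all 14217 genes, and a gene was called at an adjusted p under 0.05. This scale understates the change of low genes, and levels of different genes cannot be compared because probe sets differ in brightness. The lung markers Sftpc (type 2 cells), Scgb1a1 (club cells) and Ager (type 1 cells) were high on every array, from 9830 to 10919, 9614 to 11118 and 3071 to 5771. Some arrays stand apart. HCR sham 0432 had an Actb 3′ minus 5′ difference of 2.06 log2, a sign of RNA quality, against 0.63 to 0.83 on the other HCR sham arrays. High muscle or fat markers marked HCR sham 0433, HCR smoke 0410, 0414, 0415 and 0417 and LCR sham 0442, and results were recomputed without these 6 arrays. These are the arrays with a summed heart muscle signal of 2514 or more, and the next, HCR sham 0432, LCR sham 0440, LCR smoke 0420 and HCR smoke 0419 at 1775, 1536, 1126 and 1019, were kept. The numbers of the arrays follow the groups, and numbering order and group cannot be told apart.

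Smoke moved part of the module in both directions, by small steps. In HCR, 8 of 34 members rose and 3 fell, where 17.7% of all genes rose and 30.4% fell. In LCR, 9 rose and 6 fell, against 22.7% and 27.9% of all genes. The members' median difference was 0.02 in HCR and 0.07 in LCR, and that of all genes was -0.03 and -0.00. The members that rose in both lines were Xbp1, Dnajb9, Dnaja1, Dnajb1 and Asns, which is 62.5% of the HCR list and 55.6% of the LCR list. Those that fell in both were Canx and Pdia4, at 66.7% and 33.3%, and no member was called in opposite directions. Over all genes, 1754 rose in both lines, which is 69.8% of the HCR calls and 54.4% of the LCR calls. Because RNA came from whole lung, fewer cells of a type and less RNA per cell cannot be told apart. With each array centred on its median, the LCR split became 15 higher and 2 lower, and with quantile normalization the HCR split became 8 higher and 1 lower. These settings moved all genes too. Their median difference went from -0.005 to 0.054 in LCR with median centring, and from -0.027 to -0.004 in HCR with quantile normalization. The shares of all genes called under them are not given here. With the arrays' interquartile range of log2 values as a covariate, 2 members rose and 3 fell in HCR. HCR sham and HCR smoke arrays did not overlap in this range, so in HCR the covariate and smoke can hardly be told apart. A call lost there cannot be read as an absent smoke change.

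**Figure D1:**
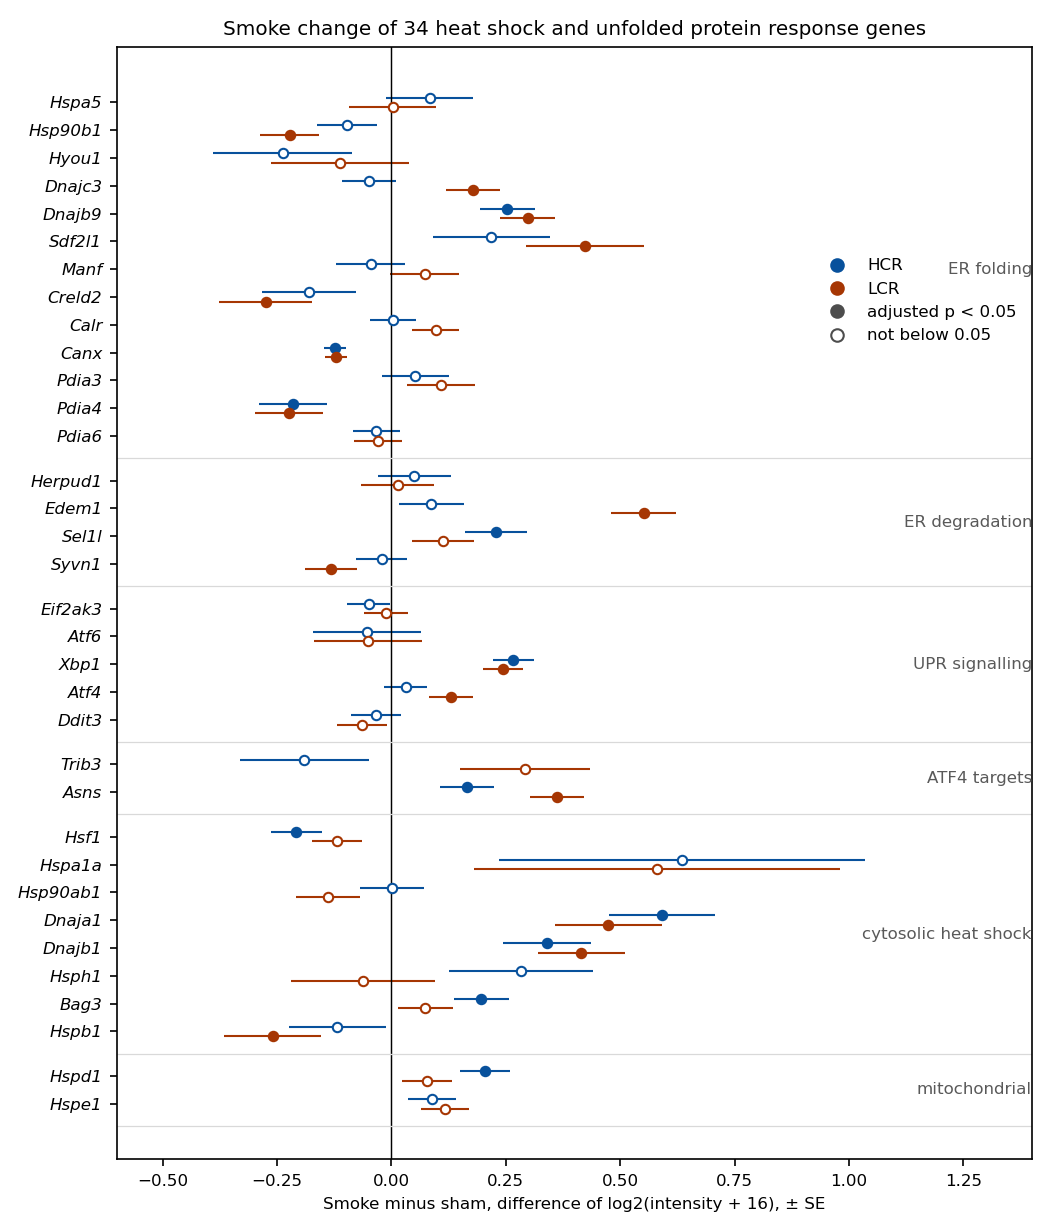
Smoke minus sham difference of log2(intensity + 16), ± SE, for each of the 34 members by role, in HCR (blue) and LCR (brown); filled points passed an adjusted p of 0.05 (limma, n = 7 sham and 12 smoke animals per line). Dnaja1 at 0.59 and Edem1 in LCR at 0.55 are the filled points farthest to the right, while Hspa1a lies as far out with an SE of 0.40.

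Among the 13 ER chaperones and disulfide isomerases, 1 rose and 2 fell in HCR (7.69% and 15.4%, against 17.7% and 30.4% of all genes). In LCR 3 rose and 4 fell (23.1% and 30.8%, against 22.7% and 27.9%). Hspa5, which encodes BiP, ran from 1578 to 2166 (median 1890.2) in HCR sham and from 1688 to 2665 (median 1976) in HCR smoke. In LCR it ran from 1476 to 2289 (median 2136) under sham and from 1666 to 2683 (median 1867) under smoke. All 4 groups overlapped widely. Its difference was 0.08 ± 0.09 in HCR (adjusted p = 0.49) and 0.00 ± 0.09 in LCR (adjusted p = 0.98), and the 95% intervals reached from -0.11 to 0.28 and from -0.19 to 0.19.

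Hsp90b1, the ER member of the Hsp90 family (GRP94), went from 2360.4 to 3074 (median 2848) in LCR sham and from 2039.9 to 2778 (median 2379.8) in LCR smoke. It fell in LCR by 0.22 ± 0.06 on the log2 scale (adjusted p = 0.0046), with 6 of 12 smoke arrays below the lowest sham array. In HCR the ranges were 2068 to 2861 (median 2734) and 2124 to 2845 (median 2446), and the difference of -0.10 ± 0.06 missed the threshold (adjusted p = 0.22). Its lowest HCR sham array was 0432, and without that array the difference was -0.15 (adjusted p = 0.043). The HCR fall also passed with array weights (adjusted p = 0.025), the interquartile range covariate (0.044) and the Actb 3′ minus 5′ covariate (0.041). Pdia4, a disulfide isomerase, fell by 0.22 ± 0.07 in HCR (adjusted p = 0.017) and by 0.22 ± 0.07 in LCR (adjusted p = 0.013). Plasma cell and B cell markers also moved in LCR: 1 of 6 measured plasma cell markers rose and 4 fell, with summed intensity from 3039 to 3859 in sham and 2595 to 3585 in smoke, and 5 of 5 B cell markers fell (524 to 876 and 193 to 370.1). In HCR the plasma cell sum ran from 2439 to 3683 in sham and from 2533 to 4254 in smoke, and 1 of 5 B cell markers fell. Their part in the falls of Hsp90b1, Creld2 and Pdia4 was not tested. On median-centred arrays the adjusted p of Pdia4 was 0.062 in HCR and 0.064 in LCR. Creld2, an ER stress-induced disulfide isomerase, fell in LCR by 0.27 ± 0.10 (adjusted p = 0.024), a call that ended without any 1 of LCR sham 0442, 0443, 0444 and 0445 (adjusted p 0.055 to 0.062). The Creld2 call also ended with quantile normalization (adjusted p = 0.053), on median-centred arrays (0.075) and without the 6 arrays that stand apart (0.069).

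Calnexin, the membrane-bound lectin chaperone encoded by Canx, had the narrowest spread of the members in 3 groups. It ran from 1956 to 2189 (median 2059) in HCR sham and from 1766 to 1969 (median 1933) in HCR smoke, with 10 of 12 smoke arrays below every sham array. In LCR it ran from 1949 to 2135 (median 2039.8) and from 1805 to 1948 (median 1875), and there the groups did not overlap. The probe set fell by 0.12 ± 0.02 in both lines (adjusted p = 0.0001 in HCR and 8.7e-05 in LCR). This rests on 1 of 3 probe sets. The other Canx probe sets gave 0.08 ± 0.06 and 0.08 ± 0.15 in HCR, and 0.05 ± 0.06 and 0.09 ± 0.15 in LCR. None of these passed. HCR sham 0432 was far below its group on both, at 971 (other HCR sham arrays from 1366) and 180 (others from 546). HCR smoke 0412 was low on the dimmer of them, at 267. The differences of these probe sets without these arrays are not given here. Its soluble relative calreticulin (Calr) ran from 1103 to 1261 (median 1209), 1098 to 1321 (median 1170.5), 1019 to 1289 (median 1203) and 1122 to 1575 (median 1198) in the order HCR sham and smoke, then LCR sham and smoke, and all ranges overlapped. It differed by 0.00 ± 0.05 in HCR (adjusted p = 0.96) and 0.10 ± 0.05 in LCR (adjusted p = 0.11).

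The ER folding members that rose were Dnajb9, Sdf2l1 and Dnajc3. Dnajb9 (ERdj4), an Hsp40 protein of the ER that Xbp1 induces, ran from 409.7 to 522 (median 482) in HCR sham and from 469 to 646 (median 582) in HCR smoke. The LCR values ran from 376 to 489 (median 433) and from 459.6 to 614 (median 540.5). In HCR 10 and in LCR 9 of 12 smoke arrays lay above every sham array of the line. Its rise was 0.25 ± 0.06 in HCR (adjusted p = 0.00086) and 0.30 ± 0.06 in LCR (adjusted p = 0.00011). With the arrays' interquartile range in the model, HCR gave 0.14 (adjusted p = 0.196). Sdf2l1, part of the ER Hsp40 complex, rose in LCR by 0.42 ± 0.13 (adjusted p = 0.0063), and its HCR difference of 0.22 ± 0.13 did not pass (adjusted p = 0.16). Dnajc3 (p58IPK), a co-chaperone of BiP that also restrains PERK, ran from 261 to 310.4 (median 279) in LCR sham and from 276 to 359.6 (median 329) in LCR smoke. It rose there by 0.18 ± 0.06 (adjusted p = 0.011), with 9 of 12 smoke arrays above all sham arrays. In HCR it ran from 271 to 364 (median 316) and from 262 to 359.7 (median 298), a difference of -0.05 ± 0.06 (adjusted p = 0.51). The test of the difference between the lines gave 0.23 ± 0.08 (adjusted p = 0.12), and 0.26 with array weights (adjusted p = 0.032).

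The 7 genes whose windows hold the ER stress element thus had no common direction. In HCR Xbp1 rose, Canx fell and 5 were not called. In LCR Xbp1 and Dnajc3 rose, Hsp90b1, Canx and Creld2 fell, and Hspa5 and Calr were not called. The remaining ER folding members were not called in either line. Hyou1, an Hsp110-type partner of BiP, differed by -0.24 ± 0.15 in HCR and -0.11 ± 0.15 in LCR. Manf, a secreted ER stress protein, differed by -0.05 ± 0.08 and 0.07 ± 0.08. Pdia3 differed by 0.05 ± 0.07 and 0.11 ± 0.07, and without HCR smoke 0412, its lowest array at 1472, it was called in both lines (0.12 in HCR, adjusted p = 0.041, and 0.11 in LCR, adjusted p = 0.047). Its LCR difference was also called on median-centred arrays (adjusted p = 0.044) and with only the groups compared (0.024). Pdia6 differed by -0.03 ± 0.05 in each line.

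ER-associated degradation returns misfolded proteins to the cytosol, and Edem1 stood out among its 4 members. Edem1 encodes a mannose-trimming protein of the ER that marks misfolded glycoproteins for disposal. It ran from 873 to 1276 (median 1043) in HCR sham and from 970.3 to 1272 (median 1105) in HCR smoke. In LCR sham it ran from 639 to 869 (median 802), and in LCR smoke from 1007 to 1365 (median 1140.1). Every LCR sham array was below every array of the other groups. Edem1 was lower in LCR than in HCR under sham by -0.40 ± 0.08 (adjusted p = 0.0028). It rose with smoke in LCR by 0.55 ± 0.07 (adjusted p = 9.2e-08), and its HCR difference was 0.09 ± 0.07 (adjusted p = 0.32). The smoke change differed between the lines by 0.46 ± 0.10 (adjusted p = 0.017), and under smoke the lines differed by 0.06 ± 0.06 (adjusted p = 0.57).

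All 3 Edem1 probe sets gave the same order of groups for LCR. In LCR they rose by 0.55 ± 0.07, 0.74 ± 0.09 and 0.58 ± 0.08, and under sham LCR was below HCR by -0.40 ± 0.08, -0.34 ± 0.10 and -0.43 ± 0.09. They did not behave alike in HCR, where the differences were 0.09 ± 0.07, 0.31 ± 0.09 and -0.04 ± 0.08, and the second of these passed over all probe sets (adjusted p = 0.0057). The test of the difference between the lines gave 0.46 ± 0.10, 0.43 ± 0.13 and 0.62 ± 0.12, with adjusted p of 0.018, 0.065 and 0.0087 over all probe sets. Macrophage markers rose with smoke in both lines. Of 12 listed, 10 were measured, and 7 rose and 1 fell in HCR, while 9 rose and 1 fell in LCR and 2 were lower in LCR under sham. Their summed intensity ran from 3575 to 6303 in HCR sham, 5442 to 10685 in HCR smoke, 2763 to 4653 in LCR sham and 8021 to 11875 in LCR smoke. The part of these markers, or of the type 2 cell markers given further below, in the Edem1 difference was not tested.

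**Figure D2:**
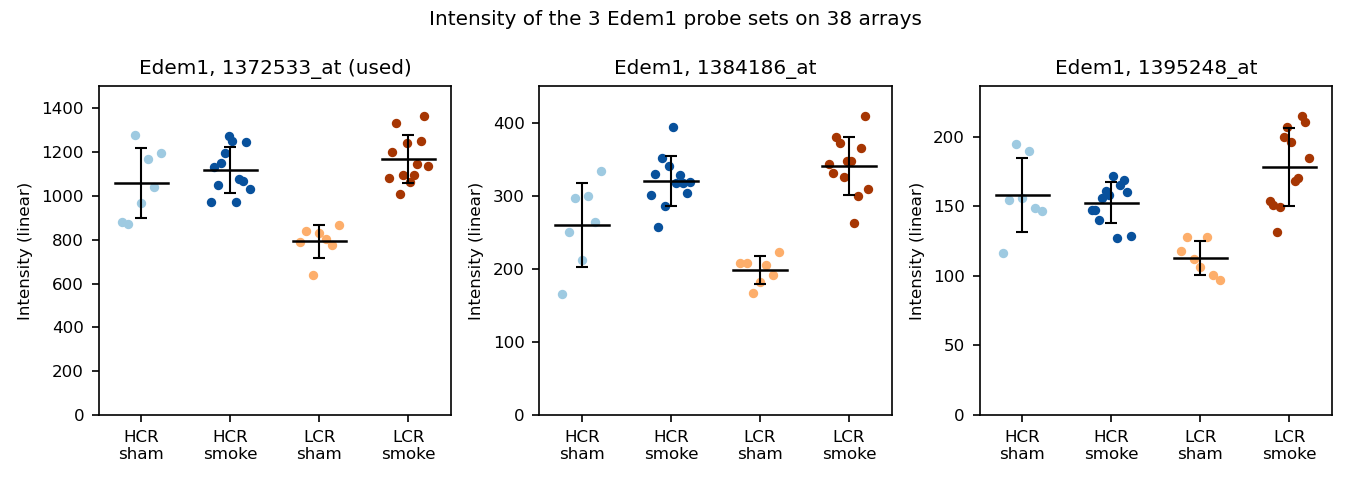
Linear intensity of the 3 Edem1 probe sets on each of 38 arrays by group, with mean and SD as bars (n = 7 per sham group and 12 per smoke group). On the probe set used, LCR sham lies between 639 and 869 and all other arrays lie above 869.

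Sel1l and Syvn1 encode the scaffold and the ubiquitin ligase of the main disposal complex. Sel1l rose in HCR by 0.23 ± 0.07 (adjusted p = 0.0057), from 123 to 207 (median 204) in sham to 192 to 266 (median 226) in smoke. HCR sham 0432 was the lowest array at 123, and with the Actb 3′ minus 5′ difference as a covariate the difference was 0.11 (adjusted p = 0.086); with the interquartile range it was 0.20 (adjusted p = 0.10). In LCR Sel1l ran from 204 to 239 (median 217) and from 219.8 to 273 (median 241), with a difference of 0.11 ± 0.07 (adjusted p = 0.17). Syvn1 fell in LCR by 0.13 ± 0.06 (adjusted p = 0.048), at the edge of the threshold. With quantile normalization the Syvn1 difference was -0.09 (adjusted p = 0.21), and on median-centred arrays -0.07 (adjusted p = 0.30). Herpud1, an ER stress-induced part of the same complex, ran from 528 to 752 (median 619), 504 to 743 (median 643), 538 to 702 (median 617) and 495 to 853 (median 586) in the order HCR sham and smoke, then LCR sham and smoke. It was not called in any comparison.

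Of the 5 measured sensors and transcription factors, Xbp1 rose in both lines and Atf4 in LCR. Xbp1 encodes the transcription factor whose messenger IRE1 splices, and the array reading is its total messenger, spliced or not. It ran from 1724 to 2191 (median 2068) in HCR sham and from 2202 to 2651 (median 2435) in HCR smoke, with no overlap. The LCR values ran from 1757 to 2268 (median 2015) and from 2243 to 2558 (median 2364), with 10 of 12 smoke arrays above every sham array. Xbp1 rose by 0.27 ± 0.04 in HCR (adjusted p = 8.6e-06) and by 0.24 ± 0.04 in LCR (adjusted p = 2.2e-05), and the difference between these changes was -0.02 ± 0.06 (95% interval -0.15 to 0.10).

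Atf4, the factor favoured when PERK slows translation, ran from 1657 to 1896 (median 1809.5) in LCR sham and from 1848 to 2114 (median 1971) in LCR smoke. It rose there by 0.13 ± 0.05 (adjusted p = 0.023), a call that ended without LCR sham 0442 (adjusted p = 0.065) or 0445 (adjusted p = 0.053). The Actb 3′ minus 5′ difference ran from 0.69 to 1.08 log2 in LCR sham and from 0.59 to 0.73 in LCR smoke, and with it as a covariate the Atf4 difference was 0.07 (adjusted p = 0.113). In HCR it ran from 1479 to 2273 (median 2054) and from 1914 to 2095 (median 2014), and differed by 0.03 ± 0.05 (adjusted p = 0.62). The HCR sham array at 1479 was 0432. Without it Atf4 was lower in LCR than in HCR under sham by -0.19 (adjusted p = 0.0018), and its smoke change differed between the lines by 0.17 (adjusted p = 0.036). With all arrays these were -0.13 ± 0.05 (adjusted p = 0.20) and 0.10 ± 0.07 (adjusted p = 0.44). The difference under sham also passed with array weights (adjusted p = 0.0077) and with the Actb 3′ minus 5′ covariate (0.018).

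The remaining factors were not called in either line. Ddit3 (CHOP), the factor tied to cell death under lasting ER stress, ran from 166 to 206 (median 174) and from 159 to 204 (median 175) in HCR, and from 171 to 207 (median 186) and from 149.9 to 205 (median 178) in LCR. These ranges nearly coincide, and the differences were -0.03 ± 0.05 and -0.06 ± 0.05 (95% intervals -0.15 to 0.08 and -0.18 to 0.05). Eif2ak3, which encodes PERK, differed by -0.05 ± 0.05 and -0.01 ± 0.05. Atf6 differed by -0.05 ± 0.12 in each line.

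The 2 members that ATF4 induces are Asns, the asparagine synthetase, and Trib3, a pseudokinase that feeds back on ATF4. Asns ran from 195 to 230.2 (median 206) in LCR sham and from 221 to 303 (median 277) in LCR smoke, with 11 of 12 smoke arrays above every sham array. In HCR it ran from 209 to 254 (median 246) and from 218 to 314 (median 254), with 6 of 12 above. It rose by 0.36 ± 0.06 in LCR (adjusted p = 5.1e-06) and by 0.16 ± 0.06 in HCR (adjusted p = 0.022). The HCR call ended without any 1 of HCR sham 0432, 0436 and 0439 (adjusted p 0.055 to 0.060), and the test of the difference between the lines gave 0.20 ± 0.08 (adjusted p = 0.19).

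Trib3 ran from 90.7 to 262 (median 180.0) in HCR sham, 105 to 228 (median 162) in HCR smoke, 119 to 199.7 (median 139) in LCR sham and 133 to 236 (median 190.5) in LCR smoke. All groups overlapped. The differences were -0.19 ± 0.14 in HCR (adjusted p = 0.27) and 0.29 ± 0.14 in LCR (adjusted p = 0.084). Its dimmer probe sets passed in LCR over all probe sets, at 0.30 ± 0.08 (adjusted p = 0.0018) and 0.29 ± 0.08 (adjusted p = 0.0042). The difference between the lines was 0.48 ± 0.20 on the probe set used (adjusted p = 0.18), and 0.41 ± 0.11 (adjusted p = 0.043) and 0.38 ± 0.12 (adjusted p = 0.069) on the others. Without HCR sham 0438, its lowest array, Trib3 was lower with smoke in HCR, by -0.33 (adjusted p = 0.033), and higher in LCR (adjusted p = 0.046), as it was in LCR without LCR sham 0441 (adjusted p = 0.045). The LCR rise also passed with quantile normalization (adjusted p = 0.035), on median-centred arrays (0.028) and with array weights (0.018). It passed too with the interquartile range covariate (0.030), the mean of its probe sets (0.0059) and only the groups compared (0.027).

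**Figure D3:**
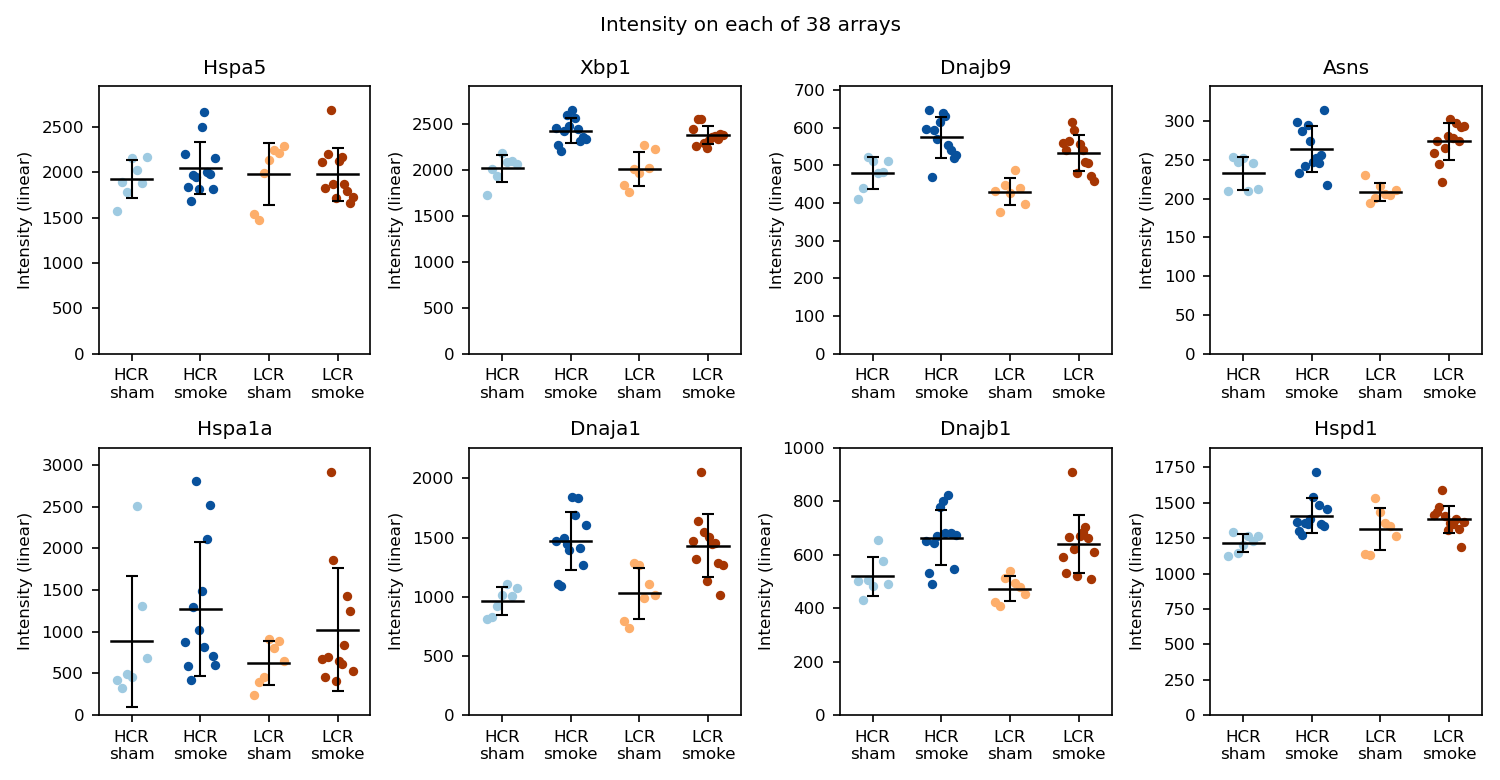
Linear intensity of 8 members on each of 38 arrays by group, with mean and SD as bars (n = 7 per sham group and 12 per smoke group). Xbp1 in HCR smoke lies wholly above HCR sham, Hspa5 overlaps in all groups, and Hspa1a spreads from 242 to 2919.

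In the cytosol 3 of 8 members rose and 1 fell in HCR (37.5% and 12.5%, against 17.7% and 30.4% of all genes). In LCR 2 rose and 1 fell (25.0% and 12.5%, against 22.7% and 27.9%). The rises in both lines were of Hsp40 co-chaperones, which hand clients to Hsp70. Dnaja1 ran from 808 to 1106 (median 1009) in HCR sham and from 1090.4 to 1843 (median 1460.0) in HCR smoke, with 11 of 12 smoke arrays above all sham arrays. The LCR values ran from 738 to 1283 (median 1017) and from 1013 to 2055 (median 1451), with 9 of 12 above. It rose by 0.59 ± 0.12 in HCR (adjusted p = 8.9e-05) and by 0.47 ± 0.12 in LCR (adjusted p = 0.00094). Dnajb1, the Hsp40 of the classical heat shock response, ran from 432 to 654 (median 500.0) and from 490.1 to 822 (median 672) in HCR, and from 407 to 539 (median 479) and from 509.8 to 911 (median 641) in LCR. It rose by 0.34 ± 0.10 (adjusted p = 0.0040) and by 0.42 ± 0.10 (adjusted p = 0.00051). The interquartile range of log2 values ran from 2.941 to 3.037 on HCR sham and from 2.743 to 2.937 on HCR smoke arrays, with no overlap. With it as a covariate the HCR differences were 0.35 for Dnaja1 (adjusted p = 0.067) and 0.18 for Dnajb1 (adjusted p = 0.305).

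Their Hsp70 partner was far more variable. Hspa1a, the stress-inducible Hsp70, ran from 326 to 2503 (median 494) in HCR sham, 419 to 2809 (median 951) in HCR smoke, 242 to 916 (median 645) in LCR sham and 403 to 2919 (median 683) in LCR smoke. Its highest array was 7.67, 6.70, 3.79 and 7.24 times the lowest of the same group. The SD of its log2 values was 1.03, 0.87, 0.69 and 0.85 in these groups, the largest of the 34 members in each, against a median of 0.13 to 0.15 over the members. Smoke differences of 0.64 ± 0.40 in HCR (adjusted p = 0.19) and 0.58 ± 0.40 in LCR (adjusted p = 0.23) were within this spread. The highest HCR sham array was 0436, and without it the HCR difference was 0.94 (adjusted p = 0.046). Hspa1a is nearly identical to Hspa1b, so its probe set may read both.

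Hsf1, the transcription factor of the heat shock response, ran from 159 to 214 (median 170.3) in HCR sham and from 134 to 188 (median 151) in HCR smoke. It fell in HCR by 0.21 ± 0.06 (adjusted p = 0.0025), with 9 of 12 smoke arrays below every sham array. The call ended with quantile normalization (-0.12, adjusted p = 0.072) and with the arrays' interquartile range in the model (-0.13, adjusted p = 0.209). In LCR it ran from 155 to 177 (median 166) and from 125 to 167 (median 156), a difference of -0.12 ± 0.06 (adjusted p = 0.072) that passed without LCR smoke 0424 (adjusted p = 0.049). This LCR difference also passed with array weights (adjusted p = 0.030) and with only the groups compared (0.041). Hspb1 (Hsp27), a small heat shock protein, ran from 2332 to 3069.5 (median 2805) in LCR sham and from 1657 to 3058 (median 2378) in LCR smoke. It fell there by 0.26 ± 0.11 (adjusted p = 0.040). This call is borderline, since it ended without any 1 of 9 arrays (LCR sham 0443 to 0446, LCR smoke 0424, 0425 and 0429 to 0431, adjusted p 0.055 to 0.089). The call also ended on median-centred arrays (-0.20, adjusted p = 0.11) and without the 6 arrays that stand apart (-0.27, adjusted p = 0.056). In HCR the ranges were 2352 to 3507 (median 3036) and 1994 to 3307 (median 2713), with -0.12 ± 0.11 (adjusted p = 0.37).

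Bag3, a co-chaperone that links Hsp70 to autophagy, rose in HCR by 0.20 ± 0.06 (adjusted p = 0.0071), with all 12 smoke arrays above the sham mean. With the arrays' interquartile range in the model this was 0.15 (adjusted p = 0.179). Its LCR difference was 0.07 ± 0.06 (adjusted p = 0.31), and 0.13 (adjusted p = 0.034) without the 6 arrays that stand apart, among them LCR sham 0442, its highest LCR sham array. Hsph1 (Hsp110), the nucleotide exchange factor of Hsp70, ran from 589 to 832 (median 706) and from 592 to 1529 (median 811) in HCR, and from 491 to 1050.1 (median 977) and from 545 to 1203 (median 822) in LCR. The groups overlapped, and its differences of 0.28 ± 0.16 (adjusted p = 0.14) and -0.06 ± 0.16 (adjusted p = 0.76) were not called. Hsp90ab1, the constitutive cytosolic Hsp90, differed by 0.00 ± 0.07 in HCR and -0.14 ± 0.07 in LCR (adjusted p = 0.094). The LCR difference passed without LCR sham 0440 (-0.18, adjusted p = 0.040) or 0441 (-0.18, adjusted p = 0.033). It also passed with quantile normalization (adjusted p = 0.023), array weights (0.0079), the interquartile range covariate (0.014) and the Actb 3′ minus 5′ covariate (0.025).

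The mitochondrial chaperonin is built from Hspd1 (Hsp60) and its lid Hspe1 (Hsp10). Hspd1 ran from 1126 to 1292 (median 1232) in HCR sham and from 1274 to 1719 (median 1363) in HCR smoke, with 11 of 12 smoke arrays above all sham arrays. It rose by 0.21 ± 0.05 (adjusted p = 0.0024), and, with the arrays' interquartile range in the model, the difference was 0.07 (adjusted p = 0.485). In LCR it ran from 1132 to 1537 (median 1333) and from 1189.9 to 1594 (median 1376), a difference of 0.08 ± 0.05 (adjusted p = 0.23), and 0.12 (adjusted p = 0.043) without the 6 arrays that stand apart. Hspe1, which shares the promoter shown above, differed by 0.09 ± 0.05 in HCR (adjusted p = 0.15) and by 0.12 ± 0.05 in LCR (adjusted p = 0.056). On median-centred arrays it passed in HCR (0.13, adjusted p = 0.029) and in LCR (0.18, adjusted p = 0.0041). In LCR it also passed without the 6 arrays (0.16, adjusted p = 0.0082) and without any 1 of HCR sham 0432, LCR sham 0442 and 0444, and LCR smoke 0421, 0422 and 0430 (adjusted p 0.0099 to 0.049). Of the 4 members with a heat shock element of 3 units, Dnaja1 was called in both lines and Hspd1 in HCR with all arrays. Hspe1 and Hsph1 were called in neither line, and Hsph1 differed by 0.28 in HCR and -0.06 in LCR. Among the uncalled differences only that of Hspe1 in LCR lay close to the threshold (adjusted p = 0.056). In HCR neither Dnaja1 (adjusted p = 0.067) nor Hspd1 (0.485) passed once the model held the arrays' interquartile range.

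Between the lines under sham, Edem1 was the only member called, as lower in LCR, where 1.39% of all genes were higher and 2.34% lower. No member was called higher there by limma, and at an unadjusted p under 0.05 there were 1 higher (Sel1l) and 5 lower (Dnajc3, Dnajb9, Edem1, Atf4 and Asns). Under smoke 0 of 34 members were called by limma in either direction, against 4.61% of all genes higher and 1.70% lower. At an unadjusted p under 0.05 there were 0 higher and 2 lower, Dnajb9 and Hspb1. Hspb1 was the nearest to a call, at -0.26 ± 0.09 (adjusted p = 0.078), and it passed without HCR smoke 0418 (adjusted p = 0.037), LCR smoke 0423 (0.033) or LCR smoke 0428 (0.049). It also passed with array weights (adjusted p = 0.023). For the difference of the smoke changes, Edem1 was the only call, against 1.52% of all genes with a larger value in LCR and 0.352% with a smaller one. At an unadjusted p under 0.05 there were 4 larger in LCR (Dnajc3, Edem1, Trib3 and Asns) and 0 smaller. The median difference of the smoke changes was 0.019 over all genes and 0.0017 over the members. Shares of all genes at the unadjusted threshold are not given here, so these unadjusted counts have no background to be judged by. The smoke comparison of each line and the line comparisons share arrays, so these values are not independent of each other.

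Some single animals had many members at one end of their group's range. In LCR smoke, array 0423 was the highest of its 12 on 22 of 34 members (64.7%), while it was the highest on 10.35% of all genes tested. These 22 included Hspa5 at 2683, Sdf2l1 at 817, Hspa1a at 2919, Dnaja1 at 2055, Dnajb1 at 911 and Hspd1 at 1594, and thus reached over the ER, the cytosol and the mitochondrion. That array's heart muscle sum of 172 and macrophage sum of 9525 lay inside the range of the group. Its Actb 3′ minus 5′ difference of 0.73 log2 was the highest of the group (lowest 0.59), and its array median of 5.92 was the lowest. The part of these in its high members was not tested. HCR smoke 0415, an array with high heart muscle markers, was the highest on 14 members (41.2%, against 8.82% of all genes). HCR sham 0436 was the highest of its group on 6 members (17.6%, against 11.09% of all genes), all cytosolic: Hspa1a, Hspb1, Dnaja1, Dnajb1, Hsph1 and Bag3. At the low end, LCR sham 0441 was the lowest of its group on 17 members (50.0%, against 19.03% of all genes), LCR sham 0440 on 11 (32.4%, against 13.89%), HCR sham 0432 on 16 (47.1%, against 18.65%) and HCR smoke 0410 on 13 (38.2%, against 9.45%). The Actb 3′ minus 5′ difference was 1.08 log2 for 0441 and 2.06 log2 for 0432, each the highest of its group. For LCR sham 0440 and HCR smoke 0410 it was 0.69 and 0.61 log2, near the low end of their groups. The part of RNA quality in these low members was not tested.

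Within groups, 4 pairs of members were correlated over animals, which gave 16 relations adjusted together, 10 of them with an adjusted p under 0.05 for Pearson's r (two-sided, exact permutation for 7 animals and 100000 resamples for 12). Hsph1 and Dnaja1, both heat shock factor targets, were correlated in every group. In HCR sham r was 0.97 (rho 0.96, exact permutation, adjusted p = 0.0063 for r and 0.020 for rho) and in HCR smoke 0.74 (rho 0.78, permutation, adjusted p = 0.014 and 0.020). In LCR sham r was 0.90 (rho 0.93, exact permutation, adjusted p = 0.034 and 0.022) and in LCR smoke 0.89 (rho 0.76, permutation, adjusted p = 0.0035 and 0.022). Without the 2 arrays farthest from the median of Hsph1, r stayed between 0.70 and 0.99.

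The ER pair Hspa5 and Hsp90b1 was correlated in 3 groups. In HCR smoke r was 0.80 (rho 0.73, permutation, adjusted p = 0.0081 and 0.024), in LCR sham 0.97 (rho 0.89, exact permutation, adjusted p = 0.034 and 0.028), and in LCR smoke 0.87 (rho 0.90, permutation, adjusted p = 0.0035 and 0.0032). In HCR sham r was 0.69 (rho 0.25, exact permutation, adjusted p = 0.20 and 0.59). Without the 2 farthest arrays r was 0.51 in HCR smoke, 0.51 in LCR sham and 0.75 in LCR smoke. In LCR sham the arrays left out were 0440 and 0441, where both genes were low. In HCR smoke they were 0414 and 0415, arrays with high heart muscle markers, where both genes were high. Both values were lower without these arrays, but leaving out the farthest arrays narrows the range and can itself lower r. Hspa1a and Dnajb1 had r of 0.96 in HCR sham (rho 0.82, exact permutation, adjusted p = 0.016 and 0.068) and 0.65 in HCR smoke (rho 0.61, permutation, adjusted p = 0.037 and 0.073), and r of 0.69 and 0.57 in LCR sham and LCR smoke did not pass. Without the 2 arrays farthest from the median of Hspa1a, r was 0.64 in HCR sham and 0.84 in HCR smoke. It was then 0.10 in LCR sham and 0.23 in LCR smoke.

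For the pair across the compartments, 1 of 4 groups passed. Hspa5 and Hspa1a had r of 0.29 in HCR sham, 0.17 in HCR smoke and 0.38 in LCR smoke (adjusted p 0.28 to 0.59, permutation tests). In LCR sham r was 0.86 (rho 0.61, exact permutation, adjusted p = 0.039 and 0.24), and 0.59 without 0440 and 0441. All pairs come from the same arrays, so array quality is shared by both genes of a pair. With the 6 arrays that stand apart left out, 4 of the 16 relations passed.

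**Figure D4:**
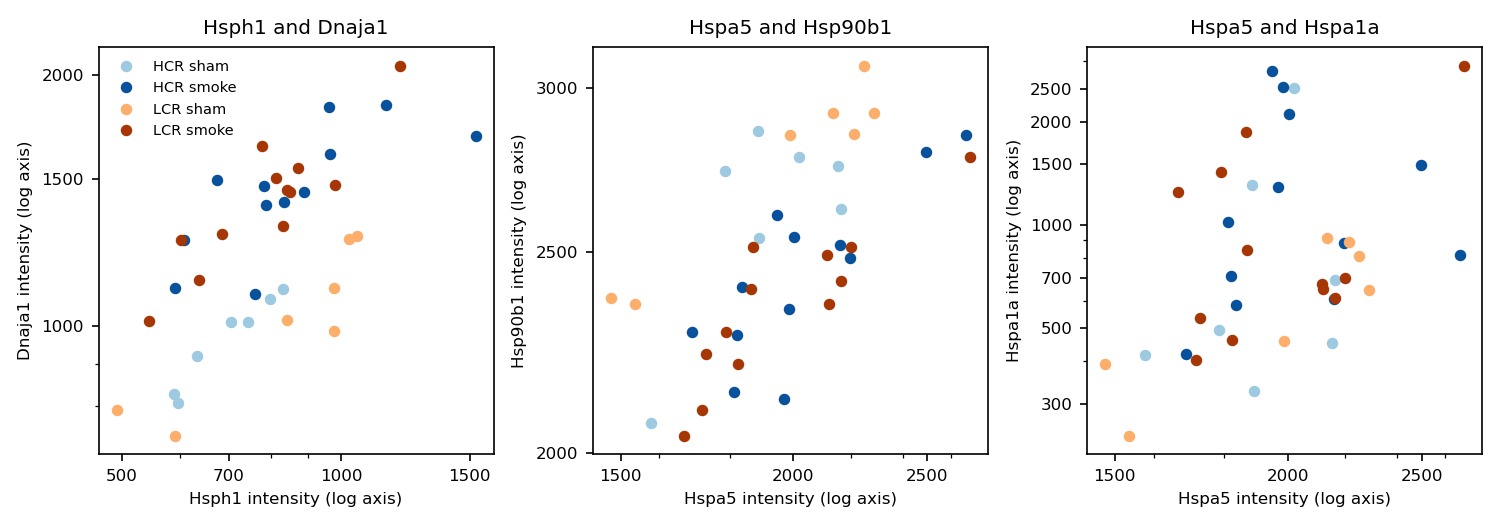
Intensity of 3 pairs of members on each of 38 arrays, log axes, coloured by group. Hsph1 and Dnaja1 rise together in every group (r from 0.74 to 0.97), and Hspa5 and Hspa1a have r of 0.17 in HCR smoke.

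A wider list of 147 genes of the same pathways, 141 of them measured, was set beside the members. In HCR 31 rose and 29 fell, and in LCR 55 rose and 20 fell. These splits depend on the scaling: with each array centred on its median they were 44 and 22 in HCR and 75 and 12 in LCR, and with quantile normalization 45 and 20, and 66 and 15. Median centring also moved the median difference of all genes, from -0.027 to 0.017 in HCR and from -0.005 to 0.054 in LCR. With the interquartile range as a covariate 26 rose and 8 fell in HCR. The shares of all genes called under these settings are not given here. The other ATF4 targets had the highest share of rises among these lists in LCR. Of 33, 9 rose and 4 fell in HCR (27.3% and 12.1%), and 21 rose and 3 fell in LCR (63.6% and 9.09%), with medians of 0.03 and 0.21. Nars1 (asparaginyl-tRNA synthetase) rose by 0.40 ± 0.05 in HCR and 0.47 ± 0.05 in LCR, and Yars1 (tyrosyl-tRNA synthetase) by 0.17 ± 0.05 and 0.42 ± 0.05. The amino acid transporter Slc7a5 rose by 0.58 ± 0.14 and 0.96 ± 0.14, and the cystine transporter Slc7a11 by 2.36 ± 0.43 and 2.44 ± 0.43. The transcription factor Atf5 fell in both, by 0.47 ± 0.08 and 0.36 ± 0.08.

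Of 32 other ER folding and translocation genes, 7 rose and 7 fell in HCR (21.9% and 21.9%), and 16 rose and 3 fell in LCR (50.0% and 9.38%). The difference between these counts was not tested. P4hb, a disulfide isomerase, rose in both lines (0.21 ± 0.03 and 0.27 ± 0.03), Sec61a1 of the translocation channel also rose in both (0.11 ± 0.04 and 0.30 ± 0.04), and the oxidase Ero1b fell in both (-0.48 ± 0.07 and -0.57 ± 0.07). Of 15 further disposal genes, 3 rose and 5 fell in HCR, among the latter Erlec1, Edem2 and Os9, and 5 rose in LCR, among them Ube2j1, Nploc4 and Derl2. Of 16 other signalling genes, 1 rose and 6 fell in HCR (6.25% and 37.5%) and 2 rose and 4 fell in LCR (12.5% and 25.0%). Nfyb, a subunit of the CCAAT-binding factor NF-Y that takes part at the ER stress element, fell in both (-0.44 ± 0.05 and -0.40 ± 0.05), and Eif2s1, the translation factor that PERK phosphorylates, rose in both (0.23 ± 0.04 and 0.40 ± 0.04).

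Of 34 other cytosolic chaperones, 9 rose and 3 fell in HCR (26.5% and 8.82%) and 8 rose and 6 fell in LCR (23.5% and 17.6%). Tcp1 of the cytosolic chaperonin rose in both (0.30 ± 0.05 and 0.29 ± 0.05), and Stub1, the ubiquitin ligase that works with Hsp70, fell in both (-0.27 ± 0.06 and -0.51 ± 0.06). Of 11 other mitochondrial genes, 2 rose and 4 fell in HCR (18.2% and 36.4%) and 3 rose and 4 fell in LCR (27.3% and 36.4%). Between the lines, 2 of the 141 were higher and 4 lower in LCR under sham (1.42% and 2.84%, against 1.39% and 2.34% of all genes), and 10 higher and 1 lower under smoke (7.09% and 0.709%, against 4.61% and 1.70%). The smoke change was larger in LCR for 5 of them, Ssr2, Edem2, Psat1, Cebpb and Fkbp5, named here after their values were seen, and smaller for 0. Edem2, a relative of Edem1, had a difference of 0.28 ± 0.06 between the smoke changes (adjusted p = 0.017). Unlike Edem1 it fell in HCR, by 0.18 ± 0.04 (adjusted p = 0.00064). Type 2 cell markers moved too: of 9, 3 rose in HCR and 7 in LCR, with summed intensity from 37879 to 43977 in HCR sham, 40660 to 45941 in HCR smoke, 34667 to 41500 in LCR sham and 43100 to 46051 in LCR smoke. Their part in the ER genes' changes was not tested.

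**Figure D5:**
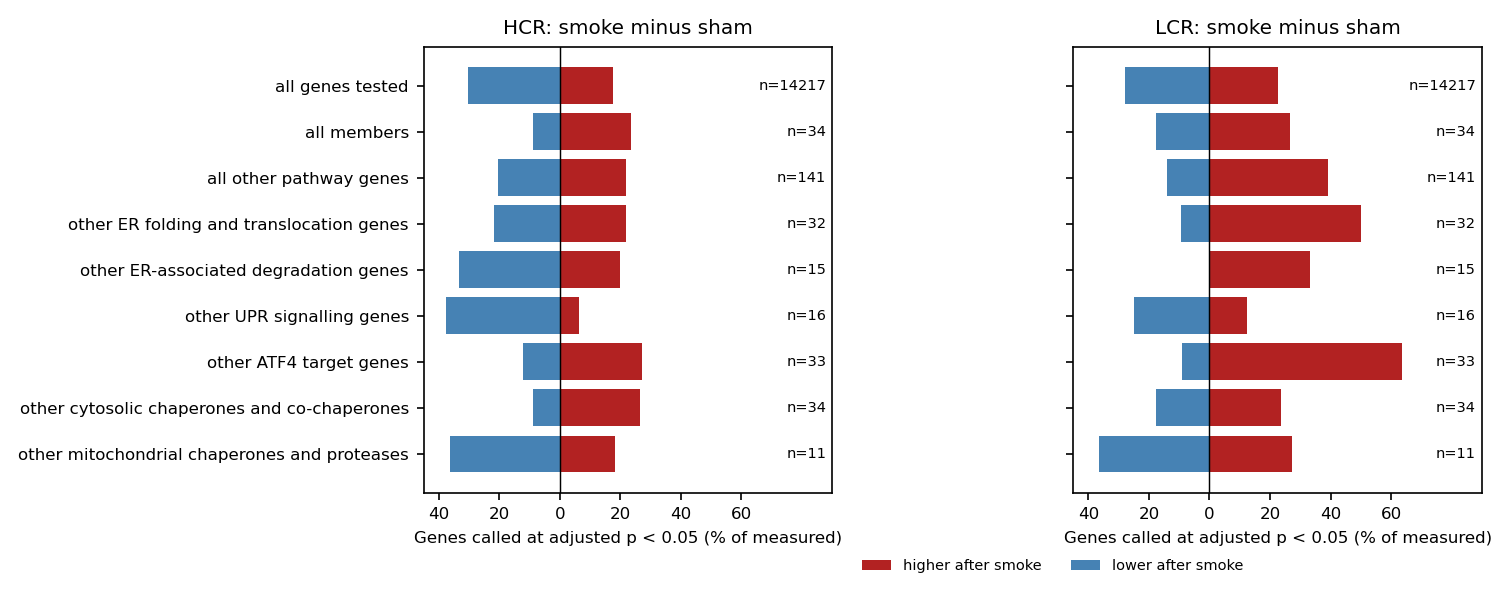
Share of genes called higher (red) or lower (blue) after smoke in HCR and LCR, in percent of the genes measured (n at right), for all genes tested, the members and the other genes of their pathways. The ATF4 targets in LCR have the longest red bar, 21 of 33 genes, against 22.7% of all genes.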

How the data were processed

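Lung RNA of 38 animals was labelled with biotin and hybridised to Affymetrix Rat Genome 230 2.0 arrays, per the labels' protocols. The authors deposited 1 linear intensity per probe set and array, from 2.09 to 11558, with summarising software not given in the sources used here. Of 31099 probe sets, 57 controls were left out, 20826 carried 1 gene symbol, 436 several and 9780 none. Values were taken as log2(intensity + 16) without further scaling, with 1 probe set per gene (highest mean), which left 14217 genes.

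A model of 4 group means was fitted in limma 3.58.1 (R 4.3.3), with 5 contrasts and Benjamini-Hochberg adjustment over all genes in each; the number of arrays limits the precision. Labels describe separate animals. Members and lists were chosen with earlier results of these data known. All measured members could be named, and of each other pathway list up to 3 genes that passed, by p, per smoke contrast. Alternatives were quantile and median scaling, a low filter (mean log2 of at least 6), a pseudocount of 1, other uses of probe sets, only the groups compared, a trended robust variance, array weights, covariates of array quality, 6 arrays left out together and each array left out in turn. The fit was tested on simulated data. Promoters came from RefSeq (GRCr8). Python 3.11.15, pandas 2.3.3 and SciPy 1.17.1 were used.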

Additional observations from a re-analysis of the deposited data

Results flagged for a closer look

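In the sham groups of 7, 68 sets of member values were searched for a single far array, and 9 were found, where chance gives about 1 in 20, or 3.4. Groups of 12 were not searched. HCR sham 0432 was far below the rest of its group for Hsp90b1 (2068, others from 2539), Pdia3 (1827, others from 2335), Pdia4 (422, others from 516), Sel1l (123, others from 185) and Hspe1 (1307, others from 1561). HCR sham 0438 was far below for Atf6 (301, others from 579) and Trib3 (90.7, others from 172). LCR sham 0442 was far below for Edem1 (639, others from 777) and far above for Bag3 (567, others up to 457). The smoke change of Edem1 was larger in LCR than in HCR, by 0.46 on the log2 scale in the test of that difference.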

How the results depend on the processing

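Over 12 settings and 38 arrays left out in turn, 1 of 11 HCR calls (Xbp1) and 9 of 15 LCR calls of members held throughout, and so did Edem1's calls between the lines under sham and between the smoke changes (11 settings). With the mean of its probe sets, Canx turned to 0.01 in HCR (0.014) and LCR (0.0086). With all arrays its probe sets differ in sign, and HCR sham 0432 was far below its group on those not used. With the interquartile range as a covariate, 5 members were called in HCR, where that range separated sham from smoke arrays without overlap. Dnajb9, Dnaja1, Dnajb1, Bag3 and Hspd1 lost their HCR call under this setting alone. Between lines under sham array weights gave 2 calls and the Actb covariate 3, under smoke 1 with array weights, and between smoke changes 2 with array weights. Of the 141 other pathway genes, the interquartile range covariate left 34 in HCR, 2 between lines under smoke and 3 between smoke changes. Array weights gave 13 under sham, 34 under smoke and 32 between smoke changes. Median-centred arrays gave 10 under sham and 10 between smoke changes, the groups compared alone 3 under sham, and the Actb covariate 13 between smoke changes. Without the 6 arrays that stand apart, 5 passed under smoke, 1 between smoke changes, and 4 of 16 relations. The cause of these shifts was not tested. Leaving out 1 array, members called ranged from 10 to 12 in HCR, 11 to 16 in LCR, 1 to 2 under sham, 0 to 1 under smoke and 1 to 2 between smoke changes; the second call under sham and between smoke changes came without HCR sham 0432. Other pathway genes ranged from 55 to 63, 66 to 79, 4 to 10 (10 without HCR sham 0439), 5 to 15 and 2 to 15 (15 without HCR sham 0432). No paired analysis was possible because each array number belongs to 1 sample. Probe sets of low signal and the number of arrays limit what could be detected.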
